A study of Equus caballus with 25 samples.

Results

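TUBA1A, an alpha tubulin, and DYNLL1, a light chain of dynein, are 2 of the 7238 equine Ensembl transcripts that the array held, and they were chosen by their probe identifiers, ENSECAT00000014577 and ENSECAT00000008151. The study of these horses had already named both among its genes lower in mild asthma. The tests and ranks below therefore describe the 2 genes and are no independent evidence of that fall. Both encode parts of the microtubule system. Alpha and beta tubulin form the dimers from which microtubules are built, in the cytoskeleton of every cell as well as in the axoneme of motile cilia. DYNLL1 is a small dimer that links dynein motors and many other proteins to their partners, and it is also found in cilia. Ciliated cells line the airways and move mucus, whereas macrophages and neutrophils, which make up most of the cells in a bronchoalveolar lavage (BAL), carry no motile cilia but use both proteins.

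RNA was taken from BAL cells of 25 horses, with 1 array per horse and no pooling. The CTRL group (labelled Control) had 7 clinically healthy standardbreds of a mean age of 6 years. The MEA group (labelled IAD, now called mild equine asthma) had 10 horses of a mean age of 6 years, and the SEA group (labelled RAO, severe equine asthma) had 8 horses of a mean age of 12 years; most horses of both were saddle horses and the rest standardbreds. CTRL horses had been enrolled voluntarily by their owners, whereas MEA- and SEA-affected horses were hospital cases sampled for diagnosis when they were presented, so that recruitment cannot be told apart from disease either. The horses were sedated with xylazine for endoscopy and lavaged with saline and lidocaine. Each group held both sexes. Age and breed differed between SEA and CTRL, and breed between MEA and CTRL, and since neither is known here for single horses, their part cannot be told apart from that of the disease.

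Each probe had 60 bases and was spotted 2 times on an array. The last 30 bases of both probes are shown, since every value given for the genes was read through them. Capitals mark AATAAA, the usual polyadenylation signal.
TUBA1A probe, bases 31 to 60: tgggtttgAATAAAgtattccctgtcttaa
DYNLL1 probe, bases 31 to 60: ttattttctattccatacctctctgcccca
AATAAA stood in the last 30 bases of 3.99% of the 7238 probes, and its reverse complement TTTATT in 1.91%. The DYNLL1 stretch held neither. The longest run of bases shared with any other probe of the array was 12 for TUBA1A and 13 for DYNLL1, and the probes of DYNLL1 and its paralog DYNLL2 shared at most 6 in a row. Only probes were compared with probes. Whether either probe also matches the transcript of a related gene was not examined, as no transcript sequences were at hand. No position in the genome is given, because the array files name no genome build.

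Both genes were read without loss at either end of the scale. Both of their spots were well above background on 25 of 25 arrays, and 0 spots were saturated or flagged. On the log2 scale, the 2 spots of an array differed by a median of 0.14 for TUBA1A and 0.06 for DYNLL1. These medians were far below the SD between the horses of any group. The largest differences were 0.48 and 0.74, and that of DYNLL1, in MEA replicate 2, exceeded its SD in every group. In the lowest CTRL horse for DYNLL1, replicate 2, the spots differed by 0.54. All levels below are log2 intensities after normalization across the 25 arrays, and since 2 probes can bind their targets with unequal strength, the level of TUBA1A is not compared with that of DYNLL1. The share of all spots well above background, which takes the place of sequencing depth, lay between 58.2% and 90.8% over the arrays. The arrays lay on 4 slides, each of which held all 3 groups.

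TUBA1A was highest in the CTRL group and lower in both diseases. In the 7 CTRL horses its log2 intensity was 15.57, 14.04, 14.80, 15.45, 14.03, 15.61 and 14.42 in the order of their replicate numbers. The lowest, median and highest values were 10.38, 13.14 and 14.73 in the 10 MEA-affected horses, and 9.44, 12.72 and 13.94 in the 8 SEA-affected horses. Every SEA-affected horse thus lay below the lowest CTRL horse, and so did 9 of the 10 MEA-affected horses, the exception being MEA replicate 7. Group means were 14.84 ± 0.70 (SD, n = 7) in CTRL, 12.95 ± 1.16 (SD, n = 10) in MEA, while SEA had 12.34 ± 1.60 (SD, n = 8). The spread grew in the same order, and within SEA it exceeded that of 95.1% of the 4930 transcripts tested, against 75.7% within CTRL. Low values came from a few horses, mainly SEA replicates 1 (9.44) and 3 (10.64) and MEA replicate 2 (10.38).

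Between SEA and CTRL, TUBA1A fell by 2.5 on the log2 scale (SE 0.60, adjusted p = 0.0128 by limma), a level 5.66-fold lower, with a 95% interval of the log2 difference from -3.76 to -1.24. A transcript counted as called when its adjusted p was under 0.1 and its level moved 1.5-fold or more, and 16.7% of the tested transcripts were called lower in SEA and 16% higher. A complete separation of the groups with SEA below CTRL, as TUBA1A showed, occurred for 1.26% of transcripts. In bulk RNA such as this, fewer cells of a type and less RNA per cell cannot be told apart. In MEA, TUBA1A fell by 1.89 (SE 0.46, adjusted p = 0.0265 by limma), 3.7-fold, with an interval from -2.84 to -0.94. Here 6.53% of transcripts were called lower and 3.25% higher. The fall ranked 36th of 4930 in SEA and 22nd in MEA. The median log2 difference over all tested transcripts was -0.01 in SEA and 0.03 in MEA. Both comparisons share the CTRL horses.

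DYNLL1 was also lower in both diseases, by a smaller amount. Its log2 intensity was 13.51, 12.08, 12.44, 13.05, 12.47, 13.59 and 12.54 in CTRL replicates 1 to 7. The lowest, median and highest values were 10.53, 11.49 and 12.99 in MEA, and 10.83, 11.46 and 12.22 in SEA. Of the SEA-affected horses 6 of 8 lay below the lowest CTRL horse, and of the MEA-affected horses 9 of 10, so that the groups overlapped slightly. Again MEA replicate 7 was the MEA-affected horse in the range of CTRL. The means were 12.81 ± 0.58 (SD, n = 7) in CTRL, 11.56 ± 0.66 (SD, n = 10) in MEA, while SEA had 11.54 ± 0.52 (SD, n = 8). Unlike that of TUBA1A, this spread was ordinary and exceeded that of 63.9%, 59.8% and 44.1% of transcripts in CTRL, MEA and SEA. DYNLL1 fell by 1.27 in SEA (SE 0.28, adjusted p = 0.00957 by limma; interval -1.86 to -0.68), a level 2.42-fold lower than in CTRL. In MEA it fell by 1.25 (SE 0.30, adjusted p = 0.0257 by limma, interval -1.87 to -0.62), 2.38-fold. Its fall ranked 424th of 4930 in SEA and 155th in MEA, well behind that of TUBA1A.

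**Figure D1:**
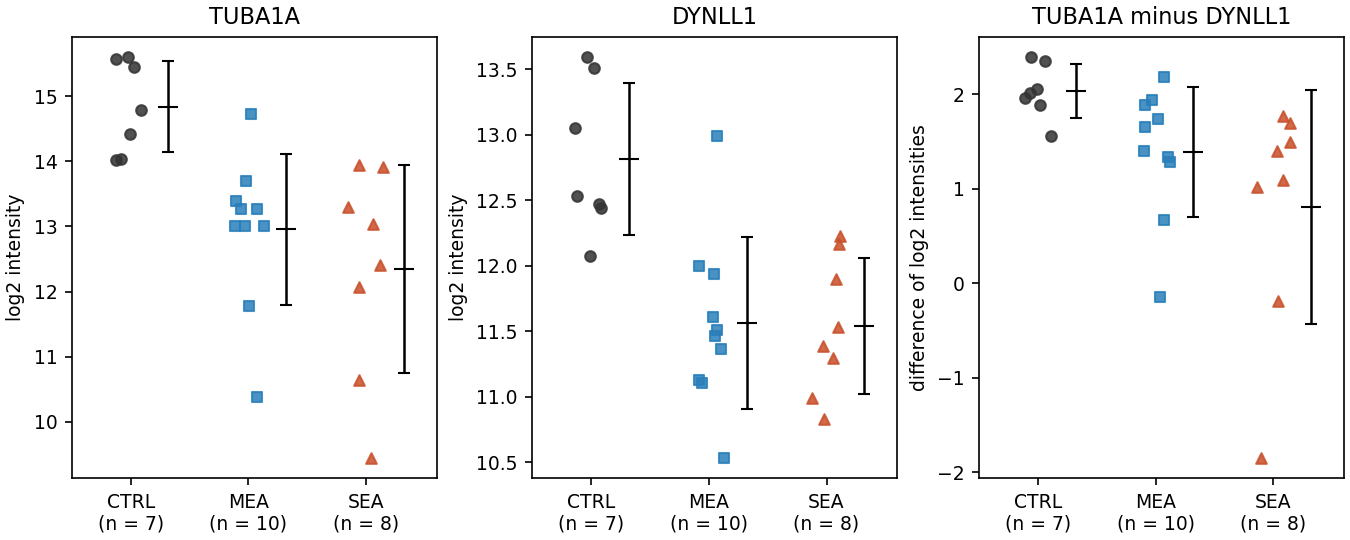
Log2 intensity of TUBA1A and DYNLL1 and TUBA1A minus DYNLL1 within a horse (y axes), for CTRL, MEA and SEA (x axes). Each point is 1 horse, and bars give the group mean ± SD; all SEA points of TUBA1A lie below the lowest CTRL point at 14.03, and the SEA spread of TUBA1A (SD 1.60) is the widest.

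Two-sided exact permutation tests over the horses gave p = 0.000777 for TUBA1A and 0.000932 for DYNLL1 between SEA and CTRL (6435 splits), and p = 0.000771 and 0.00144 between MEA and CTRL (19448 splits). Within each of the 4 slides both genes were lower in disease. Some of these differences rest on 1 horse in a group. Slide 1 held a single SEA array, replicate 1, slide 3 a single MEA array, and slide 4 a single SEA and a single CTRL array. For TUBA1A the differences between SEA and CTRL were -5.36, -2.12, -2.19 and -2.02 on slides 1 to 4. The differences between MEA and CTRL were -2.91, -2.35, -1.51 and -0.96. For DYNLL1 they lay between -1.5 and -1.11 in SEA and between -1.80 and -0.65 in MEA. The calls in SEA held without each horse in turn and without slide 1. In MEA they held without each horse, but without slide 1 the adjusted p was 0.143 for both genes (log2 difference -1.64 for TUBA1A and -1.12 for DYNLL1), and only 3 transcripts were called in all.

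SEA and MEA did not differ detectably in either gene. The difference, SEA minus MEA, was -0.61 for TUBA1A (SE 0.60, adjusted p = 0.572 by limma), with an interval from -1.86 to 0.64, and -0.02 for DYNLL1 (SE 0.28, adjusted p = 0.97), with an interval from -0.61 to 0.56. Here 0.791% of transcripts were called lower and 1.44% higher in SEA. The interval of TUBA1A was the wider one, and neither shows that SEA and MEA were alike.

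TUBA1A fell further than DYNLL1 in SEA, and also in MEA by a test that single horses decided. The value of TUBA1A minus that of DYNLL1 was formed within each horse, so that only its change between groups is read. It was 2.03 ± 0.29 (SD, n = 7) in CTRL, 1.39 ± 0.69 (SD, n = 10) in MEA, while SEA had 0.80 ± 1.24 (SD, n = 8). In CTRL it ranged from 1.55 to 2.40, the narrowest range of the 3 groups. SEA replicate 1 had the lowest value, -1.85, followed by SEA replicate 3 with -0.19 and MEA replicate 2 with -0.15. Compared with CTRL, the difference changed by -1.23 in SEA (two-sided exact permutation test, p = 0.00342, adjusted over 3 comparisons 0.0103) and by -0.64 in MEA (exact p = 0.0255, adjusted 0.0382). Between SEA and MEA it changed by -0.59 (exact p = 0.229, adjusted 0.229). The result in SEA passed 0.05 without each horse in turn. In MEA the adjusted p lay between 0.014 and 0.091 without 1 horse, and rose above 0.05 in 10 of the 17 cases, when the horse left out was any CTRL horse but replicate 5, or was one of MEA replicates 4, 5, 8 and 10.

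The genes varied together from horse to horse. Correlations were computed within groups and over all 25 horses after each group's mean had been subtracted, because both genes differ between groups. Pearson's r of TUBA1A with DYNLL1 was 0.919 in CTRL (exact permutation p = 0.00734, adjusted over 4 tests 0.00979; Spearman's rho 0.821, exact p = 0.0341). In MEA r was 0.855 (permutation p = 0.00395, adjusted 0.0079; rho 0.733, p = 0.0201). For SEA r was 0.774 (exact permutation p = 0.0228, adjusted 0.0228; rho 0.905, exact p = 0.00456), but this r did not pass under 75th percentile scaling (0.649, permutation, adjusted p = 0.0821), under quantile normalization (0.685, adjusted p = 0.0618), or without replicate 5 (0.724, adjusted p = 0.0655) or replicate 7 (0.723, adjusted p = 0.0667). Over the 25 centred horses r was 0.787 and rho 0.865, each with a permutation p of 1e-05, the smallest that 100000 resamples can give. Without the 2 horses farthest from the median of TUBA1A, r was 0.853 in CTRL, 0.546 in MEA, 0.981 in SEA and 0.866 over all, and the relation in MEA (permutation p = 0.171 without them) rested on its lowest and highest horses, replicates 2 and 7. In SEA the omitted horses were replicates 1 and 3, and replicate 1 combined the lowest TUBA1A with a middling DYNLL1 of 11.29. The slope over the centred horses was 0.38 log2 units of DYNLL1 per unit of TUBA1A.

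**Figure D2:**
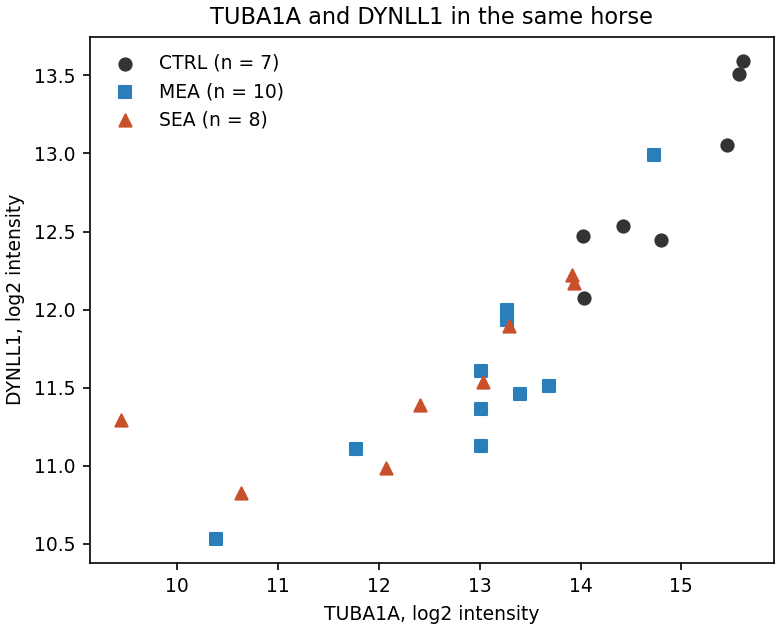
Log2 intensity of TUBA1A (x axis) against that of DYNLL1 (y axis), 1 point per horse, by group. The points rise together in each group (r of 0.919 in CTRL, 0.855 in MEA and 0.774 in SEA), and the SEA point at the far left, with TUBA1A at 9.44, has a DYNLL1 of 11.29.

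Other transcripts followed each gene more closely than the genes followed each other. Over the 25 centred arrays, among 4929 transcripts, DYNLL1 ranked 201st in correlation with TUBA1A, and TUBA1A ranked 85th with DYNLL1. The named transcripts most like TUBA1A were TTC18 (r 0.969), RSPH3 (0.968), NME5 (0.960), C7orf63 (0.959) and LZTFL1 (0.959). RSPH3 is a radial spoke protein of the axoneme, and LZTFL1 takes part in ciliary protein traffic. Most like DYNLL1 were IFT52 (r 0.927), KIFAP3 (0.926), TPPP3 (0.921), PFDN5 (0.918) and SLC25A17 (0.909). IFT52 is a subunit of the intraflagellar transport complex that builds cilia, KIFAP3 the accessory subunit of the kinesin that drives this transport, and PFDN5 a subunit of prefoldin, which hands new tubulin and actin chains to their chaperone. These correlations share arrays and normalization and are given as a description.

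On stained smears of the same lavages, exfoliated epithelial cells were few in every group, with a mean of 1.06% ± 0.84 (SD, n = 7) in CTRL, 2.45% ± 1.05 (SD, n = 10) in MEA, while SEA had 1.64% ± 1.28 (SD, n = 8). Their mean was thus higher in both diseases, in which TUBA1A and DYNLL1 were lower, but this difference in percentages was not tested. The mean of the epithelial marker transcripts described below went the other way, with 9.35 in CTRL, 8.33 in MEA and 7.32 in SEA. The transcripts thus did not follow the epithelial percentage across the groups. No relation of either gene with the epithelial percentage passed the test. For TUBA1A, r was 0.034 in CTRL (exact permutation p = 0.943, rho -0.0918), 0.0895 in MEA (permutation p = 0.815, rho 0.116), 0.346 in SEA (exact permutation p = 0.401, rho 0.374) and 0.208 over the 25 centred horses (permutation p = 0.384, rho 0.238). DYNLL1 gave r of -0.147 (exact permutation p = 0.733, rho -0.128), 0.150 (permutation p = 0.691, rho 0.0305), 0.541 (exact permutation p = 0.168, rho 0.651) and 0.213 (permutation p = 0.32, rho 0.216) in the same order. With the epithelial percentage as a covariate, the falls in MEA were no longer called (TUBA1A -2.0, adjusted p = 0.199 by limma, and DYNLL1 -1.30, adjusted p = 0.201). These differences were no smaller than those without the covariate (-1.89 and -1.25), and 0 of all tested transcripts were called in MEA with it. In SEA the falls of both genes were still called with this covariate. Each percentage rests on 200 counted cells, and at such low counts and so few horses only a strong relation could be detected.

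Macrophages were 97.5% ± 2.79 (SD, n = 7) of inflammatory cells in CTRL, 88.5% ± 2.48 (SD, n = 10) in MEA, while SEA had 14.3% ± 12 (SD, n = 8), where neutrophils had a mean of 84.2%. The groups form separate clusters on this measure, and no pooled correlation was computed. Mean DYNLL1 was 11.56 in MEA and 11.54 in SEA, and mean TUBA1A was 12.95 and 12.34. These 2 groups also differ in neutrophils, age and disease, and the part of macrophages in their levels was not tested. Within groups r of TUBA1A with the macrophage percentage was 0.590 in CTRL (exact permutation p = 0.116, rho 0.721), 0.0595 in MEA (permutation p = 0.869, rho -0.366), 0.0946 in SEA (exact permutation p = 0.814, rho 0.0952) and 0.111 centred (permutation p = 0.704, rho 0.107). For DYNLL1 r was 0.476 (exact permutation p = 0.299, rho 0.541), 0.164 (permutation p = 0.648, rho -0.152), -0.0957 (exact permutation p = 0.831, rho 0.0476) and 0.0305 (permutation p = 0.888, rho 0.121). All 16 correlations with percentages had an adjusted p of 0.943, and all 16 for rho had one of at least 0.695. Without the 2 horses farthest on the x axis they lay between -0.511 and 0.842.

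With the transcripts of ciliated cells, in contrast, both genes moved closely. The mean log2 intensity of 13 transcripts of ciliated cell markers, among them the radial spoke genes RSPH4A and RSPH9 (the latter with 3 transcripts), was 9.33 ± 0.70 (SD, n = 7) in CTRL, 7.57 ± 1.12 (SD, n = 10) in MEA, while SEA had 6.96 ± 1.89 (SD, n = 8). Its r with TUBA1A was 0.946 in CTRL (exact permutation p = 0.00635, adjusted over 24 tests 0.0138; rho 0.857, exact p = 0.0238), 0.939 in MEA (permutation p = 0.00031, adjusted 0.00124; rho 0.782, p = 0.0103) and 0.992 in SEA (exact permutation p = 0.000149, adjusted 0.000893; rho 0.952, exact p = 0.00114). Over the centred horses r was 0.967 and rho 0.932 (permutation p = 1e-05 each, adjusted 0.00012). DYNLL1 had r of 0.963 in CTRL (exact permutation p = 0.00258, adjusted 0.00688; rho 0.821, exact p = 0.0341) and 0.948 in MEA (permutation p = 0.00026, adjusted 0.00124; rho 0.903, p = 0.00075). In SEA its r was 0.715 (exact permutation p = 0.0439, adjusted 0.0809; rho 0.881, exact p = 0.00724), and over the centred horses 0.774 (rho 0.868, permutation p = 1e-05 each, adjusted 0.00012). Without the 2 horses farthest on the marker mean, r lay between 0.735 and 0.962 for TUBA1A and between 0.819 and 0.911 for DYNLL1, with adjusted p values above 0.05 within each group, where 5 to 8 horses were left.

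**Figure D3:**
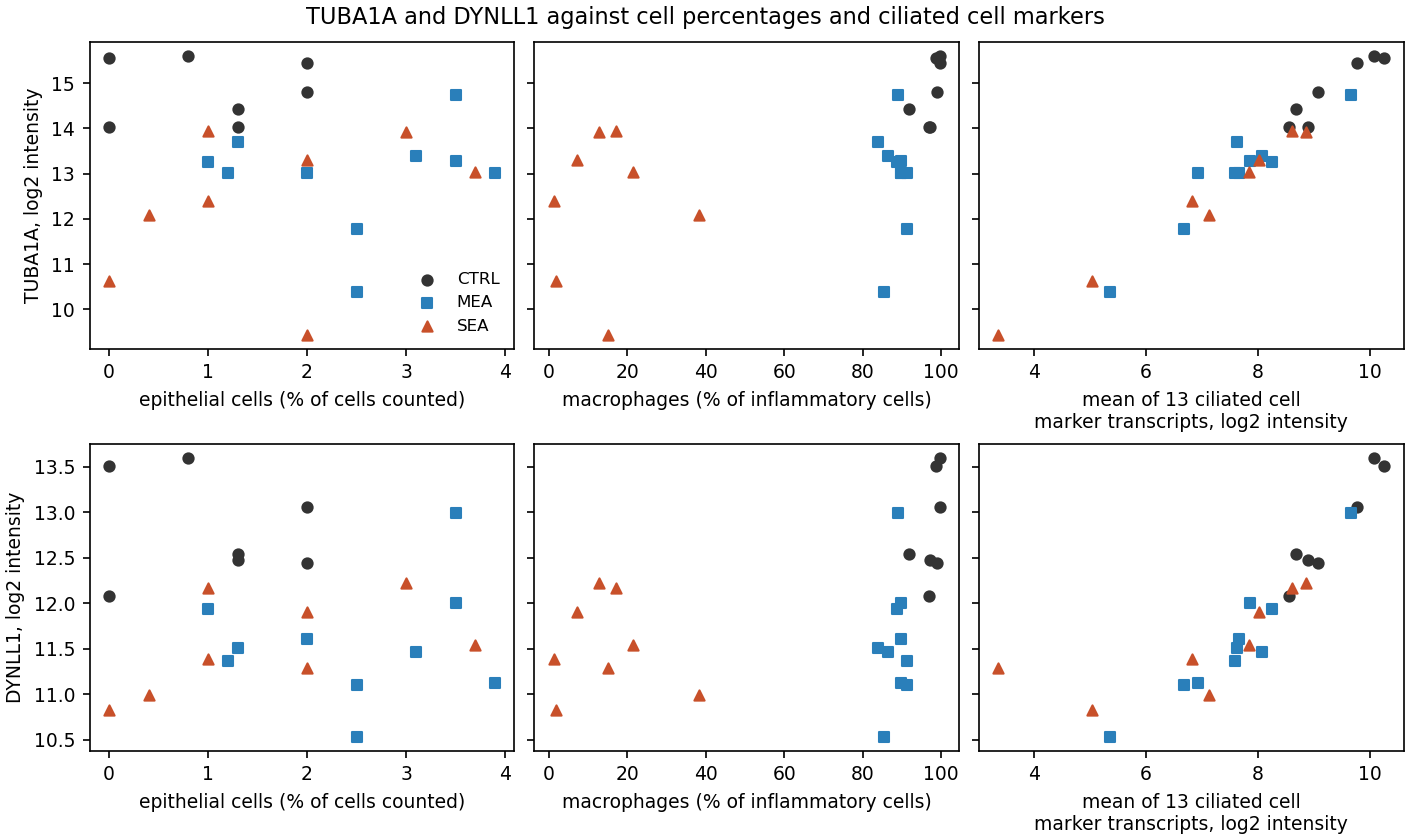
Log2 intensity of TUBA1A (top) and DYNLL1 (bottom) against the percentage of epithelial cells, the percentage of macrophages and the mean of 13 ciliated cell marker transcripts in log2 intensity (x axes), 1 point per horse. The points scatter within groups against both percentages and rise with the marker mean (centred r of 0.967 for TUBA1A and 0.774 for DYNLL1).

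The 13 ciliated cell transcripts were all called lower in SEA (median -2.51) and 10 of them in MEA (median -1.89), where 16.7% and 6.53% of all tested transcripts were called lower. RSPH4A fell by 3.13 in SEA (SE 1.0, adjusted p = 0.0318 by limma) and by 1.89 in MEA (SE 0.45, adjusted p = 0.0257). The horses' marker means ranged from 8.55 to 10.26 in CTRL, 5.36 to 9.66 in MEA and 3.36 to 8.86 in SEA. The lowest, that of SEA replicate 1, lay under 4.5, the intensity limit of the filter, as did the SEA mean of GAS8 (4.31). The low end of the SEA correlations with this marker mean, and of its use as a covariate, thus rests on weak signals. Symbols were known only for transcripts that had been called changed in these same horses, so that this and the following counts describe the lists and are no independent evidence. With the ciliated marker mean as a covariate, no call of either gene remained. The difference of TUBA1A was -0.48 in SEA (adjusted p = 0.191 by limma) and -0.18 in MEA (adjusted p = 0.917). That of DYNLL1 was -0.66 (adjusted p = 0.206) and -0.18 (adjusted p = 0.895). This covariate was made from transcripts named because they had changed in these horses, so it carries the group difference itself. The loss of the calls is thus partly built in, and the part of ciliated cells in the falls was not tested.

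The other epithelial markers, among them EPCAM, an adhesion molecule of epithelial cells, and DSP, desmoplakin of cell junctions, were called lower for 13 of 13 transcripts in SEA (median -2.03) and 6 of 13 in MEA (median -1.05), against the same 16.7% and 6.53% of all transcripts. EPCAM fell by 2.55 in SEA (SE 0.71, adjusted p = 0.019 by limma), and it fell by 1.34 in MEA (SE 0.44, adjusted p = 0.0822). The mean of these 13 ranged from 8.29 to 10.33 in CTRL, 6.82 to 9.60 in MEA and 4.53 to 8.69 in SEA, where the lowest lay close to the limit of 4.5. The r of this mean with TUBA1A was 0.821 over the centred horses (rho 0.785, permutation p = 7e-05 each, adjusted 0.00056), 0.618 in CTRL (exact permutation p = 0.163, rho 0.429), 0.645 in MEA (permutation p = 0.0513, rho 0.745) and 0.965 in SEA (exact permutation p = 0.000645, adjusted 0.00221, rho 0.929). With DYNLL1 the centred r was 0.537 (permutation p = 0.0043, adjusted 0.0103; rho 0.549, p = 0.00532), against 0.449 in CTRL, 0.606 in MEA and 0.640 in SEA, none of which passed 0.05 (exact or permutation p of 0.311, 0.0657 and 0.0876). This centred r was 0.350 under 75th percentile scaling (permutation, adjusted p = 0.18) and 0.478 without MEA replicate 7 (adjusted p = 0.0525). The part of these epithelial transcripts in the fall of TUBA1A and DYNLL1 was not tested.

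Of 7 macrophage marker transcripts, 3 were called higher in SEA (CD68, MPEG1 and EMR1) and 2 in MEA (both of SIGLEC1), with medians of 0.49 and 0.83, where 16% and 3.25% of all tested transcripts were called higher. MARCO, a scavenger receptor of alveolar macrophages, was called in neither (differences of -1.12 and 0.20). The mean of the 7 transcripts ranged from 7.83 to 9.43 in CTRL, 8.71 to 9.88 in MEA and 8.83 to 9.80 in SEA. Its group mean was 8.82 in CTRL and 9.27 in SEA, whereas macrophages were 97.5% and 14.3% of inflammatory cells. The transcripts thus did not follow the macrophage percentage across these groups. The correlations below are with these transcripts and are not read as a measure of macrophages. MPEG1, a pore-forming protein of phagocytes, rose by 1.59 in SEA (SE 0.47, adjusted p = 0.0245 by limma), and EMR1, the macrophage receptor F4/80, by 1.56 (SE 0.48, adjusted p = 0.0275). The centred r of their mean was -0.551 with TUBA1A (permutation p = 0.00194, adjusted 0.00582; rho -0.504, p = 0.0136) and -0.488 with DYNLL1 (permutation p = 0.0182, adjusted 0.0365; rho -0.382, p = 0.0745). Within CTRL, MEA and SEA it was -0.672, -0.505 and -0.701 for TUBA1A and -0.617, -0.471 and -0.358 for DYNLL1, with adjusted p values of 0.0846 to 0.382 (exact or permutation). The centred relation of DYNLL1 did not pass under any of the 4 alternatives tried besides single horses, being -0.358 under 75th percentile scaling, -0.294 in the authors' normalized values, -0.224 under quantile normalization and -0.223 without the 2 farthest horses (permutation, adjusted p of 0.18, 0.224, 0.346 and 0.533), and in 7 of 25 cases it did not pass without a single horse. That of TUBA1A passed under 75th percentile scaling and not under quantile normalization (-0.415), in the authors' values (-0.384) or without the 2 farthest horses (-0.510), with adjusted p of 0.0992, 0.108 and 0.0625 (permutation). Neutrophil markers were called higher for 5 of 7 transcripts in SEA and lower for 1, and for 0 and 1 in MEA, against 16% higher and 16.7% lower of all transcripts in SEA and 3.25% and 6.53% in MEA. Lymphocyte markers were called higher for 5 of 9 and lower for 1 in SEA, and in neither direction in MEA, against the same shares.

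The other tubulins with a symbol did not share one course. TUBB2A, a beta tubulin, fell by 1.01 in SEA (SE 0.25, adjusted p = 0.0133 by limma) and by 1.16 in MEA (SE 0.27, adjusted p = 0.0243). TUBD1, the delta tubulin of centrioles, fell by 0.75 in SEA (SE 0.31, adjusted p = 0.0809), and in MEA the difference was -0.61 (adjusted p = 0.276). TUBB6, another beta tubulin, rose by 0.82 in SEA (SE 0.34, adjusted p = 0.0824), and in MEA the difference was 0.28 (adjusted p = 0.625). The falls of TUBB2A and TUBD1 had the direction of TUBA1A, and TUBB6 the opposite one.

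Among the light chains of dynein, DYNLT1, a light chain of the Tctex type, fell by 0.82 in SEA (SE 0.28, adjusted p = 0.0395 by limma) and by 0.84 in MEA (SE 0.25, adjusted p = 0.0627). DYNLL2, the close paralog of DYNLL1, was not called, with differences of 0.50 in SEA (SE 0.29, adjusted p = 0.203) and -0.02 in MEA (SE 0.20, adjusted p = 0.973). TCTE3, a further Tctex-type light chain, fell by 2.75 in SEA (SE 0.54, adjusted p = 0.00579), and it fell by 2.33 in MEA (SE 0.39, adjusted p = 0.00946). 2 regulators of cytoplasmic dynein rose in SEA, NDEL1 by 1.62 (SE 0.40, adjusted p = 0.014) and PAFAH1B1 by 0.82 (SE 0.23, adjusted p = 0.0212), and their differences in MEA, 0.44 and 0.48, were not called. Of the 7 transcripts for dynein light chains and partners, 4 were called lower and 2 higher in SEA, and 3 lower in MEA (medians -0.82 and -0.72). Of all tested transcripts, 16.7% were called lower and 16% higher in SEA, and 6.53% lower in MEA. The list holds only transcripts with a symbol, so its higher shares are partly built in.

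All 8 tested transcripts of tubulin folding and modification were called lower in SEA and 3 of them in MEA (medians -0.82 and -0.82). TPPP3, a tubulin polymerization-promoting protein, fell by 2.1 in SEA (SE 0.50, adjusted p = 0.0123 by limma) and by 1.56 in MEA (SE 0.52, adjusted p = 0.0869). TTLL1, which adds glutamates to tubulin, fell by 1.5 in SEA (SE 0.30, adjusted p = 0.00618), and in MEA the difference was -0.86 (adjusted p = 0.19). Kinesins and other microtubule-binding proteins were divided, with 3 of 8 transcripts called lower and 4 higher in SEA, and 2 lower and 1 higher in MEA (medians 0.63 and 0.36). GAS2L2, which ties microtubules to actin, fell by 1.86 in SEA (SE 0.69, adjusted p = 0.0548) and KIFAP3 by 1.59 (SE 0.33, adjusted p = 0.00754), while NAV1 rose by 1.69 (SE 0.45, adjusted p = 0.0169) and the mitotic kinesin KIF20A by 1.17 (SE 0.32, adjusted p = 0.0187). Over these 4 lists, 17 of 26 transcripts were called lower and 7 higher in SEA, where 16.7% and 16% of all tested transcripts were. In MEA 9 were called lower and 1 higher, against 6.53% and 3.25%. Since a symbol was known only for transcripts already called changed in these horses, the shares of the lists lie above those of all transcripts by choice.

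**Figure D4:**
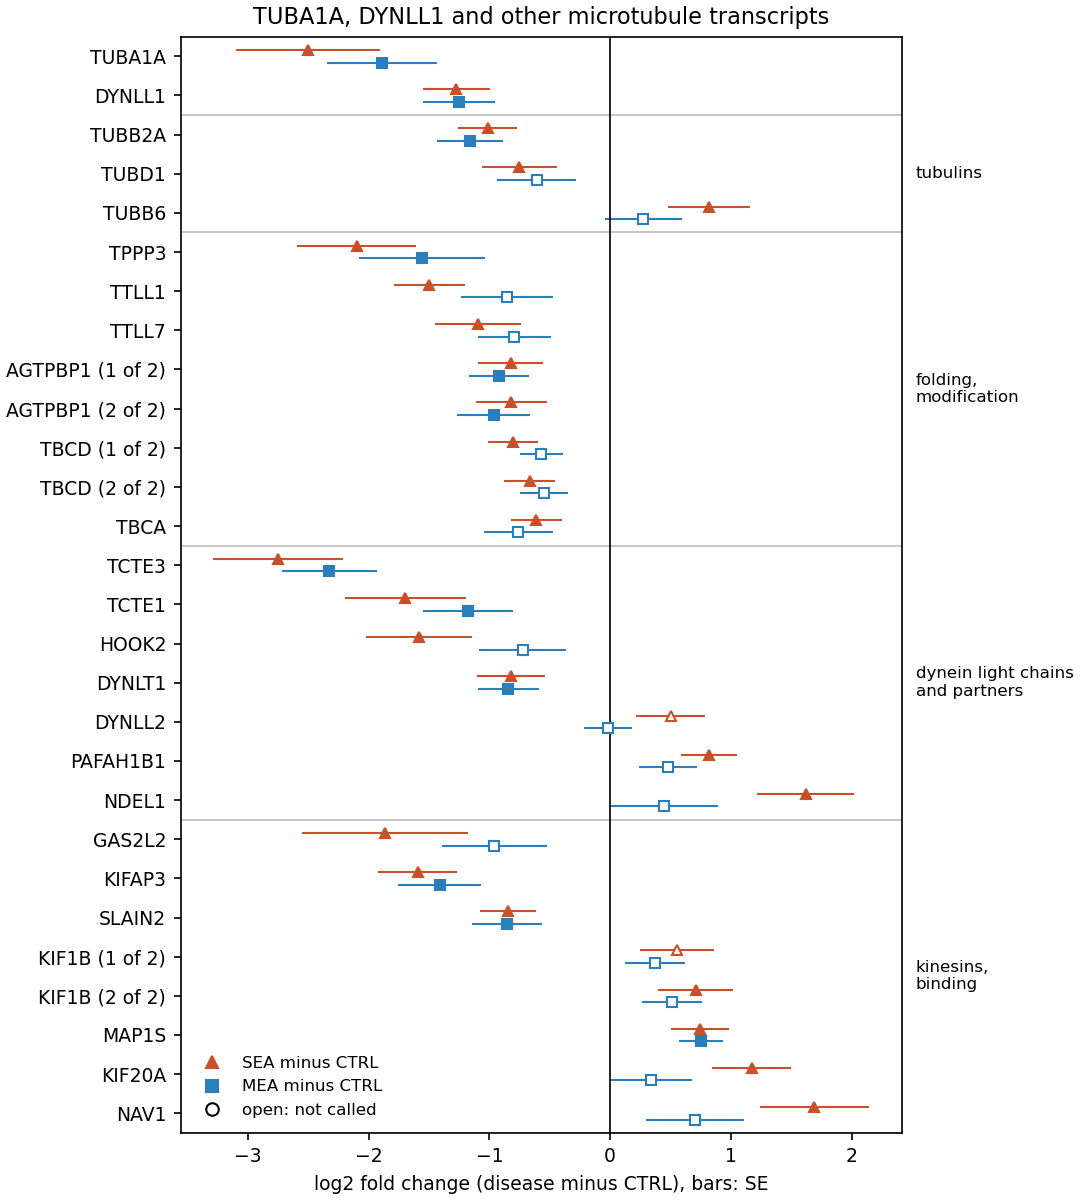
Log2 fold change against CTRL (x axis) of TUBA1A, DYNLL1 and 26 other microtubule transcripts (y axis) in SEA (triangles) and MEA (squares), with bars of 1 SE. Open symbols were not called; TUBA1A, at -2.5 and -1.89, is passed only by TCTE3, at -2.75 and -2.33.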

How the data were processed

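Each array was a one-color array with 14476 spots for 7238 transcripts. For each array the authors deposited scanner intensities from which the scanner software had already taken the background, and, for all arrays together, intensities normalized by cyclic loess; per the labels R 2.11.1 was used. Here, log2 of the scanner intensities was normalized by cyclic loess (span 0.7, 3 iterations; R 4.3.3, limma 3.58.1), flagged spots were omitted, and the mean of a probe's 2 spots was taken. A filter removed transcripts under 4.5 in 19 or more of the 25 arrays and kept 4930. Groups were compared 2 at a time with lmFit and eBayes, and p values were adjusted by Benjamini-Hochberg over all 4930. Single values per horse were compared by exact permutation, and correlations by permutation of the pairing, exact for fewer than 10 horses and otherwise with 100000 resamples (numpy 2.4.6, scipy 1.17.1). Of these steps only the limma comparison of 2 groups, and the rank sum alternative to it, were tested on simulated data. The normalization, the filter, the permutation tests and the correlations were not.

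Groups came from the labels, and sex and cell percentages from the cytology table of the study. Symbols came from the study's lists of changed transcripts, which name 1684 of the 4930; the reference gene table held 0 lines with these identifiers. Lists of tubulins, tubulin folding and modification, dynein light chains and partners, kinesins and microtubule-binding proteins, and of ciliated, other epithelial, macrophage, neutrophil and lymphocyte markers were made from general knowledge. TUBA1A, DYNLL1 and these lists were chosen with earlier results of these data known. Beside TUBA1A and DYNLL1, the tubulins and light chains with a symbol were named, at most the 2 largest called rises and falls in SEA of each list, and the 5 named transcripts most correlated with each gene; CD68, SIGLEC1 and MARCO were named after their values were seen. Arrays have no depth, and their number limits the precision. Nothing in the labels says that samples of a group were other than separate horses. Alternatives covered normalization, background, filters, tests, covariates, blocks, single spots and each horse left out. Flagged spots kept, and the fits without slide 1, were added after the data were seen; spots were first kept, and leaving them out became the reported setting once both sets of counts were known, with no change in the values of TUBA1A and DYNLL1.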

Additional observations from a re-analysis of the deposited data

How the results depend on the processing

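The falls of TUBA1A and DYNLL1 in SEA and in MEA were called under all alternatives except those given here, and where a call was lost the cause was not tested. With the ciliated marker mean as a covariate, TUBA1A differed by -0.48 in SEA and -0.18 in MEA and DYNLL1 by -0.66 and -0.18. With the epithelial percentage as a covariate, the calls in MEA were lost (TUBA1A -2.0, adjusted p = 0.199; DYNLL1 -1.30, adjusted p = 0.201; limma), and 0 transcripts were called at all. Without slide 1, chosen after the data were seen, both calls in MEA were lost (-1.64 and -1.12), with 3 transcripts called. Without 1 horse, TUBA1A lay between -2.73 and -2.09 in SEA and -2.09 and -1.60 in MEA, and DYNLL1 between -1.40 and -1.14 and between -1.41 and -1.12, all called. Between SEA and MEA, TUBA1A lay between -0.90 and -0.20 without 1 horse, and DYNLL1 between -0.14 and 0.14. The difference of DYNLL1 between SEA and MEA, near 0, changed sign under 75th percentile scaling (0.0453), normexp background (0.0807), the epithelial percentage (0.11) or ciliated marker mean (0.16) as a covariate, slide (0.0510) or scan date (0.11) as a block, and with spot 1 alone (0.0836).

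Same-numbered horses of different groups are separate horses and were not treated as pairs. The correlations of their deviations from the group means lay between -0.44 and 0.41. Differently numbered horses were not set beside them, so these values cannot decide whether the numbers hold a pairing. With the replicate block, TUBA1A was -2.51 in SEA (adjusted p = 0.0499 by limma) and -1.99 in MEA (adjusted p = 0.0804), DYNLL1 was -1.25 (adjusted p = 0.0425) and -1.34 (adjusted p = 0.0912), and the differences between SEA and MEA were -0.57 and -0.0016. The replicate block changed no call of either gene and gave 1360, 138 and 0 transcripts called in SEA, in MEA and between the diseases.

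Of all transcripts, 1612 were called in SEA, 482 in MEA and 110 between SEA and MEA. With normexp background the counts were 842, 157 and 0. In MEA the slide block gave 183 and the scan date block 220. Between SEA and MEA, 0 were called under 75th percentile scaling, 39 under quantile normalization, 239 by a rank sum statistic, 279 with all 25 arrays in 1 fit, 208 with sex, 37 with the epithelial percentage and 219 with the share of spots above background as a covariate, 0 with the slide block, 2 with the scan date block and 222 without slide 1. Without 1 horse the counts lay between 1238 and 1706 in SEA, 156 (without CTRL replicate 1) and 750 (without MEA replicate 7) in MEA, and 2 and 559 between them.

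The change of TUBA1A minus DYNLL1 lay between -1.37 and -0.849 in SEA and -0.727 and -0.468 in MEA without 1 horse, between -0.760 and -0.209 for SEA against MEA, and in MEA was -0.605 (permutation, adjusted p = 0.0502) under quantile normalization. The correlation of both genes was 0.853 in CTRL and 0.546 in MEA without the 2 farthest horses and, in SEA, 0.649 under 75th percentile scaling and 0.685 under quantile normalization, none of which passed 0.05. Without 1 horse it lay between 0.712 and 0.951 in SEA, where the adjusted p passed 0.05 only with replicates 5 and 7 both kept, 0.889 and 0.949 in CTRL, 0.813 and 0.884 in MEA and 0.743 and 0.879 centred.

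Several of the weak correlations with percentages changed sign. Without the 2 farthest horses these were TUBA1A with epithelial cells in CTRL (-0.00405) and macrophages in MEA (-0.511), and DYNLL1 with macrophages in MEA (-0.288) and SEA (0.426). Under 75th percentile scaling they were TUBA1A with epithelial cells in CTRL (-0.053) and MEA (-0.00462) and DYNLL1 with macrophages, centred (-0.0748), which was also -0.0399 under quantile normalization and -0.0241 in the authors' normalized values. Without 1 horse, TUBA1A with epithelial cells lay between -0.347 and 0.387 in CTRL and -0.126 and 0.195 in MEA, and with macrophages between -0.483 and 0.278 in MEA, -0.109 and 0.249 in SEA and -0.0208 and 0.230 centred. DYNLL1 with epithelial cells lay between -0.666 and 0.210 in CTRL and -0.196 and 0.309 in MEA, and with macrophages between -0.0952 and 0.292 in MEA, -0.439 and 0.459 in SEA and -0.0908 and 0.304 centred.

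Without the 2 farthest horses the adjusted p of these relations with marker means rose above 0.05: TUBA1A with ciliated markers in CTRL (0.909), MEA (0.735) and SEA (0.962), with epithelial markers in SEA (0.771) and with macrophage markers, centred (-0.510), and DYNLL1 with ciliated markers in CTRL (0.904) and MEA (0.819) and with macrophage markers, centred (-0.223). The relation with macrophage markers in SEA changed sign (TUBA1A 0.340, DYNLL1 0.486). Under 75th percentile scaling, the centred r of DYNLL1 was 0.350 with epithelial and -0.358 with macrophage markers. Under quantile normalization and in the authors' values, the centred r with macrophage markers was -0.415 and -0.384 for TUBA1A and -0.224 and -0.294 for DYNLL1, and that of DYNLL1 in SEA was 0.123 and 0.0353. Without 1 horse, TUBA1A lay between 0.929 and 0.975 with ciliated markers in CTRL, 0.477 and 0.896 with epithelial markers in MEA and -0.892 and -0.576 with macrophage markers in SEA. DYNLL1 lay between 0.641 and 0.905 with ciliated markers in SEA, 0.543 and 0.797 with epithelial markers in SEA and 0.478 and 0.613 centred, and with macrophage markers between -0.797 and 0.0178 in SEA and -0.575 and -0.362 centred. Keeping flagged spots, also chosen after the data were seen, gave 1601, 480 and 101 calls. Counting each tested result under each alternative, 916 kept their direction and their side of the threshold, 49 lost the call, 7 gained it and 39 changed sign.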
